A study of Homo sapiens with 4 samples.

Results

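The 10 genes followed here belong to the fibroblast growth factor (FGF) family and were measured in H1, an established line of human embryonic stem cells. They were chosen by family membership and symbol, with earlier results of these data known. FGF2, FGF4, FGF8, FGF9, FGF17, FGF18 and FGF19 encode 7 secreted ligands. FGF11, FGF12 and FGF13 encode 3 proteins of the same fold that stay inside the cell. All 10 were found among the 19775 genes listed in the deposited table. The labels describe 4 samples of wild-type H1 cells at 12 h, all grown in E8, a defined medium of DMEM/F12 with selenite, ascorbate, transferrin, insulin, FGF2 and TGFβ. A pair of samples had E8 alone and the other pair had E8 with 1 µM XMD892, an inhibitor of the kinase ERK5 (gene MAPK7). Only the 2 treated libraries, replicate 1 and replicate 2, could be matched by name to columns of the table. The samples in E8 alone were not analysed here, because the columns named for E8 give a time that contradicts their labels. XMD892 was therefore not compared with E8, and nothing below is an effect of the compound. The line is a single genotype, and no label states that the replicates are independent cultures. Their spread may be only technical.

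Secreted FGFs bind receptor tyrosine kinases of the FGFR family together with heparan sulfate on the cell surface, and the receptors signal through RAS and the kinases ERK1 and ERK2. In primed human pluripotent cells this signal helps to maintain self-renewal, which is why FGF2 is a component of the medium; the FGF2 protein added to the medium does not appear in an RNA measurement. Family members are sorted by descent and use into the canonical paracrine ligands, the endocrine ligands that need a klotho co-receptor, and the intracellular members, which bind voltage-gated sodium channels.

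The 2 libraries held 18528689 and 20217648 reads on listed genes, recovered from the deposited normalized counts, of which 2873 and 2657 fell on the 10 FGF genes. All 10 listed markers of primed pluripotent cells reached 1 RPKM in both libraries (RPKM is reads scaled to merged exon length in kilobases and to library size); their median level was 158.6 RPKM, so the label of the cells was borne out by their markers. Markers of other cell types were mostly low, with exceptions. Of the listed markers, 0 of 2 for endoderm, 0 of 5 for streak and mesoderm and 0 of 3 for trophoblast and amnion reached 1 RPKM in both libraries. Among these, MIXL1 (2.54 RPKM in replicate 2) and KRT7 (1.03 RPKM in replicate 1) passed it in 1 library only. Of 4 listed neural markers 1 reached it in both, NES, with a mean of 129.8 RPKM, above SOX2 at 94.5 RPKM. Of 4 listed fibroblast markers 2 did, THY1 at 48.9 RPKM and COL1A2 at 4.93 RPKM. THY1 is also a known surface marker of human embryonic stem cells.

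Mean levels ran from 0.168 RPKM (FGF9) to 17.8 RPKM (FGF19), and FGF19 and FGF2 held most of the secreted-ligand RNA. Of the 10 genes, 4 reached 1 RPKM in both libraries (FGF19, FGF2, FGF13 and FGF12), 5 were below it in both, and FGF18 was above it only in replicate 2. Their median was 0.900 RPKM, against 2.31 RPKM over the 19263 genes with a length, of which 59.5% reached 1 RPKM in both libraries. Summed over the 7 secreted ligands, the level was 28.8 RPKM in replicate 1 and 25.4 RPKM in replicate 2. FGF19 made up 64.0% and 67.5% of that sum, FGF2 27.7% and 20.8%, and the other 5 ligands together 8.23% and 11.7%. In bulk RNA a low level in every cell and a high level in a few cells cannot be told apart.

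**Figure D1:**
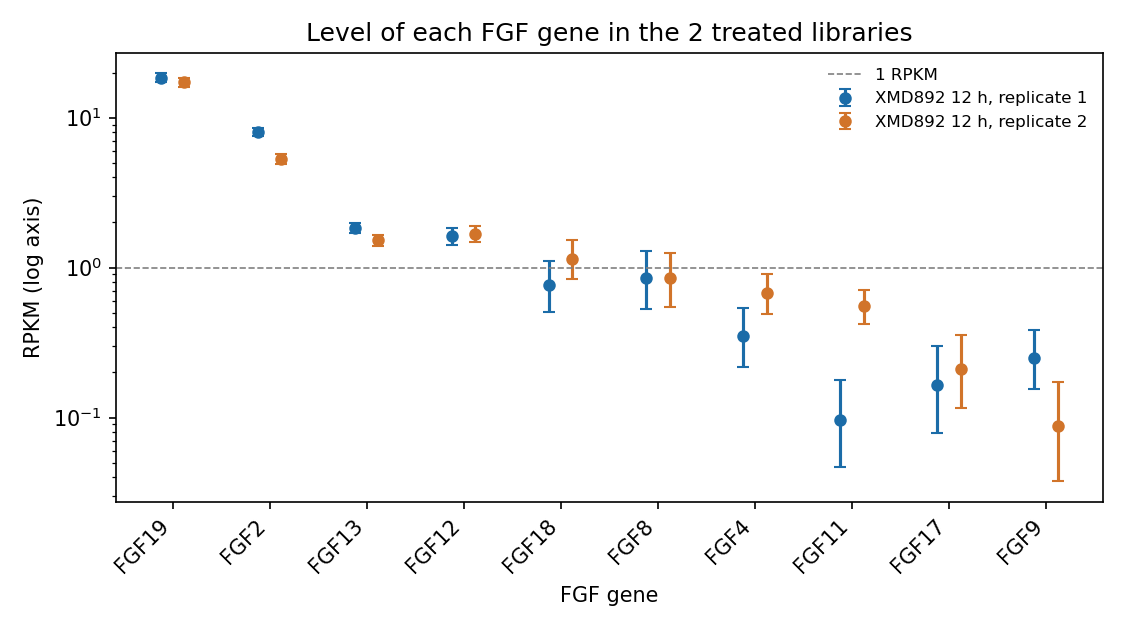
RPKM of each FGF gene on a log axis in the 2 libraries treated with XMD892 for 12 h; points are single libraries, bars are exact 95% Poisson intervals on the reads, and the dashed line marks 1 RPKM. FGF19 and FGF2 stand apart at the top, and the libraries separate most at FGF11 (0.0970 and 0.551 RPKM).

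FGF2, also called basic FGF, is the ligand that the medium supplies as protein. It spans bases 122826708 to 122898236 of chromosome 4, plus strand (GRCh38, as for all positions here). It had 1003 reads (7.99 RPKM) in replicate 1 and 726 reads (5.30 RPKM) in replicate 2, a mean of 6.65 ± 1.90 RPKM (SD, n = 2). Replicate 1 was the higher library, by 1.41-fold in normalized counts, and the counting interval of the log2 ratio of replicate 2 over replicate 1, from -0.63 to -0.35, did not include 0. Its mean stood above 69.5% of all genes with a length. Of its 6775 exon bases, 804 are shared with NUDT6 on the opposite strand, and the strand setting of the counting is not given in the sources used here. NUDT6 itself had 34 and 65 reads, few beside those of FGF2.

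FGF4, a ligand known from the inner cell mass and from pluripotent cells, where it is a target of OCT4 and SOX2, had 21 reads in replicate 1 and 44 in replicate 2. These are 0.351 and 0.673 RPKM. Replicate 2 was 2.06-fold higher in normalized counts, with a counting interval on the log2 scale from 0.26 to 1.87. FGF4 spans bases 69771016 to 69775403 of chromosome 11, minus strand. FGF19 spans 69698232 to 69704642 of that strand, 66.4 kb away. The neighbours were far apart in level: FGF19 was 52.6 times FGF4 in RPKM in replicate 1 and 25.5 times in replicate 2.

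FGF8, FGF17 and FGF18 form 1 subfamily, with known roles in the primitive streak, the midbrain-hindbrain boundary and the skeleton. FGF8 had 22 reads in replicate 1 and 24 in replicate 2, which is 0.846 RPKM in each. Counting error is wider than that closeness, since the interval of its log2 ratio ran from -0.80 to 1.00. FGF18 had 28 reads (0.761 RPKM) in replicate 1 and 46 reads (1.15 RPKM) in replicate 2, with an interval from -0.02 to 1.42. FGF17 was the lowest of the subfamily, with 10 and 14 reads, or 0.164 and 0.211 RPKM. FGF18 was 4.63 and 5.44 times FGF17 in the 2 libraries, whereas FGF8 and FGF18 changed places: FGF8 was 1.11 times FGF18 in replicate 1 and 0.739 times in replicate 2. FGF8 spans bases 101770130 to 101780369 of chromosome 10, minus strand. FGF18 spans bases 171419656 to 171457623 of chromosome 5, plus strand, and FGF17 bases 22042398 to 22048809 of chromosome 8, plus strand.

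FGF9, a ligand with known roles in gonad and lung development, was the lowest of the 10 genes by mean. It had 21 reads (0.25 RPKM) in replicate 1 and 8 reads (0.0872 RPKM) in replicate 2. Replicate 1 was 2.67-fold higher in normalized counts, and the interval of the log2 ratio was wide, from -2.80 to -0.18. FGF9 spans bases 21671383 to 21704498 of chromosome 13, plus strand. Its mean stood above 13.5% of all genes with a length, and that of FGF17 above 14.6%.

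FGF19, the endocrine ligand that controls bile acid synthesis from the gut in adults, was the highest member in both libraries. It had 836 reads (18.4 RPKM) in replicate 1 and 849 reads (17.2 RPKM) in replicate 2. The normalized counts, 897.4 and 895.9, gave the smallest gap of the 10 genes, with an interval of the log2 ratio from -0.14 to 0.14. Its mean stood above 86.9% of all genes with a length. In RPKM, FGF19 was 2.31 times FGF2 in replicate 1 and 3.24 times in replicate 2. The co-receptor through which FGF19 acts in the liver, KLB, had 20 and 13 reads (0.177 and 0.106 RPKM), and KL, the other klotho gene, was not listed. FGFR4, the receptor most tied to FGF19, stood at 14.4 and 14.9 RPKM.

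The intracellular members differed in how far the libraries lay apart. FGF12 had 221 reads (1.62 RPKM) in replicate 1 and 249 reads (1.67 RPKM) in replicate 2, with an interval of the log2 ratio from -0.12 to 0.42. FGF13, which also binds microtubules, had 701 reads (1.83 RPKM) and 635 reads (1.52 RPKM), with an interval from -0.32 to -0.01. FGF11 had 10 reads (0.0970 RPKM) in replicate 1 and 62 reads (0.551 RPKM) in replicate 2. Replicate 2 was thus 6.09-fold higher in normalized counts for FGF11, with an interval of the log2 ratio from 1.63 to 3.74, while the libraries were 1.11-fold apart for FGF12 and 1.12-fold apart for FGF13. In replicate 1 FGF13 was 18.9 times FGF11 in RPKM and in replicate 2 it was 2.76 times.

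FGF13 shows how exon length sets these levels. It had somewhat fewer reads than FGF19, but its merged exons add up to 20681 bases against 2447 for FGF19. Its mean normalized count was 711.3, against 921.4 for FGF2, so its distance below FGF2 in RPKM depends on that length. The longest transcript, at 19519 bases, is nearly as long, and no shorter transcript of FGF13 was tried as the length. FGF13 spans bases 138614731 to 139222777 of chromosome X, minus strand, with 8 annotated transcripts. FGF12 spans bases 192139395 to 192767764 of chromosome 3, minus strand, with 9. The antisense gene FGF13-AS1, with 82 and 56 reads, shares 167 exon bases with FGF13. FGF11 spans bases 7438273 to 7444937 of chromosome 17, plus strand, and 79.7% of its 5565 exon bases are also exons of other annotated genes, which the table does not list. How the authors assigned reads in such stretches is not given in the sources used here, so the level of FGF11 is uncertain.

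The stretches upstream of the most 5′ start site that the RefSeq promoter table gives for FGF11, FGF12 and FGF13 are printed because these relatives differed in how far the libraries lay apart. The table (build GRCh38.p14) held 5 of the 10 members. Each stretch is cut where an annotated exon of GENCODE release 29 begins and reads 5′ to 3′ on the strand of the gene. Capitals mark ACGTG or GCGTG on either strand (CACGT and CACGC on the other), the core letters of the element bound by hypoxia-inducible factors; ACGTG also lies inside the E-box CACGTG. The motifs and genes were chosen after the values, and the FGF11 window, had been seen. The windows are chr17:7438048-7438272 on the plus strand for FGF11, chr3:192727600-192727791 on the minus strand for FGF12 and chrX:139205024-139205273 on the minus strand for FGF13.
FGF11: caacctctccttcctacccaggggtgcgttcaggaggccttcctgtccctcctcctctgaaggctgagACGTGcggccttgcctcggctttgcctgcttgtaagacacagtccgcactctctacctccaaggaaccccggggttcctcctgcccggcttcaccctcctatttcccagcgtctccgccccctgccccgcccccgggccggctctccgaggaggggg
FGF12: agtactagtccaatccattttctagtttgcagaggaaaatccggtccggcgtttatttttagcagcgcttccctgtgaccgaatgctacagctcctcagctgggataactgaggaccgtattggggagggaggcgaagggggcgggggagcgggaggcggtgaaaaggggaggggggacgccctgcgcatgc
FGF13: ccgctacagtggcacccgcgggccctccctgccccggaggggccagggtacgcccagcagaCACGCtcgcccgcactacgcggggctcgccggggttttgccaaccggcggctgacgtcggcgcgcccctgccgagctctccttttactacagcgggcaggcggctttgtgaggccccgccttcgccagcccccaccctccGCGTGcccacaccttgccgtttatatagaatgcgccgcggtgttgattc

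The FGF11 window of 225 bases held ACGTG at 1 place and GCGTG at 0. ACGTG was present in 16.6% of all 35116 windows of that length and GCGTG in 29.5%. The FGF12 window of 192 bases held neither, and the FGF13 window of 250 bases held GCGTG at 2 places and ACGTG at 0; at that length 32.2% of windows held GCGTG. The second window of FGF12 and that of FGF13, at later starts, held neither. Other starts of FGF11 left no bases after the cut. The FGF2 window of 127 bases held GCGTG at 1 place and ACGTG at 0, and the FGF18 window of 250 bases held neither. A match is a run of letters and not a bound site. The FGF11 match was known before the motifs were chosen, and its part in the FGF11 gap was not tested.

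Between the libraries, 3 of the 10 members had a gap of at least 2-fold on the scale of log2(normalized count + 1), which understates the difference of low genes. All 10 passed the minimum mean normalized count of 10, and 16148 genes in all did, of which 10.9% had such a gap. FGF11 and FGF4 were higher in replicate 2, by 2.50 and 1.01 on that scale, and FGF9 was higher in replicate 1 (-1.32, replicate 2 minus replicate 1). The 3 genes are all among the 6 members with a mean of 10 to 50, where 29.7% of 3539 genes had a 2-fold gap. None of the 4 members with a mean of at least 50 (FGF2, FGF12, FGF13 and FGF19) had one, against 5.64% of 12609 genes at that level. The division at 50 was made after seeing the data.

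FGF11 had the largest gap of the 10 members, on reads that its shared exons make uncertain. Among the genes with a mean of 10 to 50, 2.60% had a gap as large, which is no test because the largest gap was picked. For FGF9 that share was 18.1%, and for FGF4 it was 29.5%. The counting interval left out equal levels for 5 members (FGF2, FGF4, FGF9, FGF11 and FGF13), beside 58.1% of all 16148 genes, a share near that of the members. With 1 library on each side none of these gaps has a replicate check, and no p-value is given. The FGF4 gap was under 2-fold with total reads as the scale (0.91) and with a pseudocount of 5 (0.90).

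**Figure D2:**
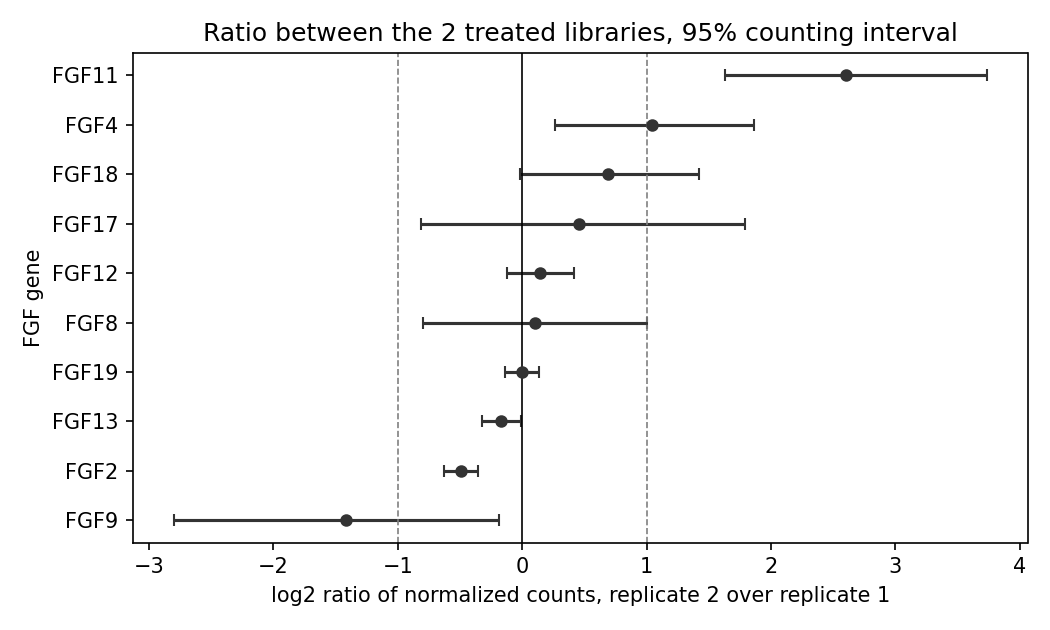
Log2 ratio of normalized counts, replicate 2 over replicate 1, for each FGF gene, with the exact 95% binomial interval on the reads; dashed lines mark 2-fold. FGF11 lies to the right of the 2-fold line with its whole interval (1.63 to 3.74), and FGF19 sits at 0.

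**Figure D3:**
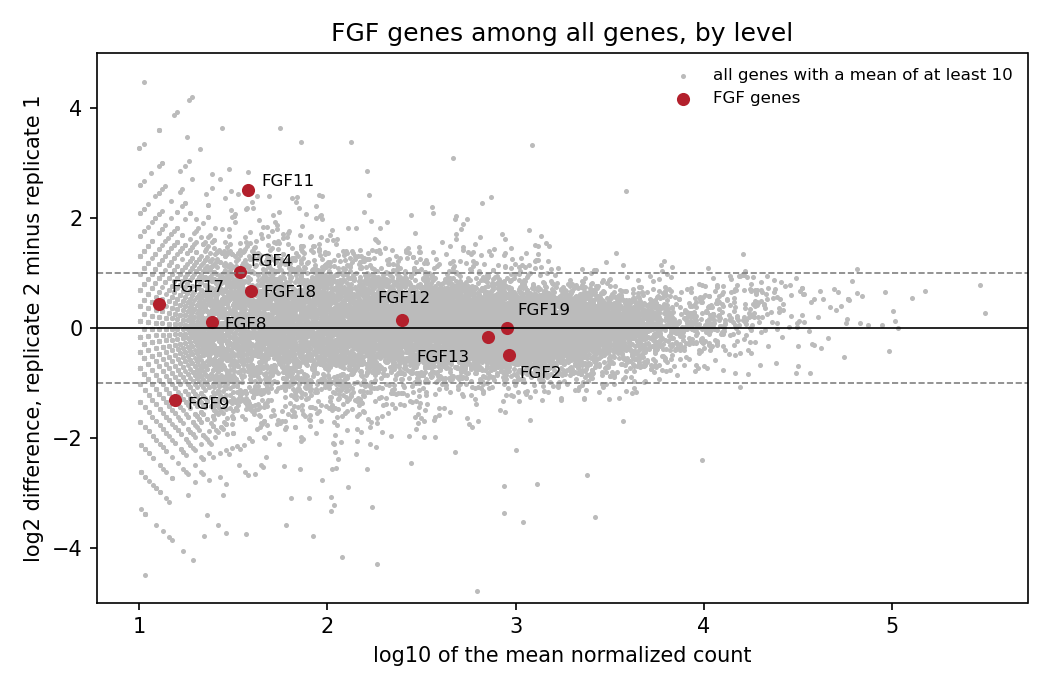
Log2 difference of the libraries against log10 of the mean normalized count; grey points are the 16148 genes with a mean of at least 10 (2 of them lie beyond the axis) and red points the FGF genes. The grey cloud widens toward low counts, where FGF4 and FGF9 lie within it and FGF11 lies near its upper edge.

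Other genes differed between the same libraries beside FGF11. Of 12 genes known to respond to low oxygen, chosen with earlier results of these data known, 9 were higher in replicate 2, 6 of them by at least 2-fold, and 1 was higher in replicate 1 by at least 2-fold (ADM). Among all 16148 genes, 10.9% had a 2-fold gap in either direction, but a list chosen in that way cannot be tested against this share. The log2 differences of the 12 genes ran from -1.10 (ADM) to 3.38 (MIR210HG), with a median of 1.01 beside 0.02 over all genes, and EGLN3 and NDRG1 stood at -0.15 and -0.02. The 4 listed neural markers were all higher in replicate 1, though the counting interval of SOX1 (-1.13 to 0.28) included 0. The neural sum was 174.1 RPKM in replicate 1 and 91.3 RPKM in replicate 2, of which NES alone gave 169.9 and 89.7 RPKM. PAX6 was not listed. Of the 4 listed fibroblast markers, COL1A1 (1429 and 196 reads), COL1A2 and PDGFRB were higher in replicate 1, with a list median of -0.74, and COL3A1 and LUM were not listed. Their sum, 47.8 RPKM in replicate 1 and 69.1 RPKM in replicate 2, had the opposite order because THY1 (3698 and 7685 reads) dominates it. The streak and mesoderm markers summed to 1.55 and 3.60 RPKM, led by MIXL1 with 31 and 104 reads. Of the 10 pluripotency markers 5 were higher in each replicate. Their sum, 2429 and 2828 RPKM, was led by POU5F1, the only one with a 2-fold gap (39373 and 83719 reads). The part of these differences in the gaps of the FGF genes was not tested.

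Ranked by mean RPKM, the order was FGF19, FGF2, FGF13, FGF12, FGF18, FGF8, FGF4, FGF11, FGF17 and FGF9. The libraries did not overlap between FGF19 and FGF2, between FGF2 and FGF13, between FGF12 and FGF18, or between FGF8 and FGF4. The counting intervals of FGF8 and FGF4 overlapped in both libraries. Those of FGF12 and FGF18 overlapped in replicate 2 (1.47 to 1.90 and 0.839 to 1.53 RPKM) and not in replicate 1. The libraries themselves overlapped between FGF13 and FGF12, FGF18 and FGF8, FGF4 and FGF11, FGF11 and FGF17, and FGF17 and FGF9. Across libraries these neighbours do not differ beyond their spread. Within each library FGF4 did stand above FGF11, at 0.351 and 0.0970 RPKM in replicate 1 and 0.673 and 0.551 RPKM in replicate 2. Their counting intervals did not overlap in replicate 1. With the longest transcript as the length in place of merged exons, 3 pairs changed places: FGF12 stood above FGF13 (2.24 and 1.77 RPKM), FGF8 above FGF18 (0.992 and 0.953 RPKM) and FGF11 above FGF4 (0.589 and 0.512 RPKM).

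Of the 12 other FGF family genes, 6 were listed (FGF10, FGF14, FGF16, FGF20, FGF22 and FGF23) and 0 reached 1 RPKM in both libraries. The highest was FGF16, with 19 and 7 reads, or 0.416 ± 0.291 RPKM (SD, n = 2). FGF22 followed at 0.282 RPKM and FGF20 at 0.209 RPKM, the latter on 3 and 11 reads. FGF1, FGF3, FGF5, FGF6, FGF7 and FGF21 were not listed, which is not the same as a count of 0, since how genes were selected for the table is not given in the sources used here.

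The machinery that receives the ligands was higher in RNA than most of the ligands. All 5 receptor genes passed 1 RPKM in each library, and their median was 10.8 RPKM. Over all genes with a length, 59.5% passed it in both, a share to set beside each list count below. FGFR1, the main receptor for FGF2 in these cells, led at 34.8 ± 1.84 RPKM (SD, n = 2), above each of the 10 ligand and intracellular genes. FGFR4 stood at 14.6 ± 0.391 RPKM and FGFR2 at 10.8 ± 1.90 RPKM. FGFR3 had 1275 reads in replicate 1 and 682 in replicate 2, or 14.2 and 6.96 RPKM, the widest gap of the receptors (-0.93 on the log2 scale). FGFRL1, a receptor without a kinase domain, was the lowest at 8.84 ± 0.615 RPKM.

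Heparan sulfate, the co-factor of receptor binding, is carried by membrane core proteins. Of their 10 genes, 9 were in the table and each passed 1 RPKM in both libraries, led by SDC4 at 43.1, GPC4 at 32.3 and SDC1 at 22.8 RPKM. Of the synthesis enzymes 7 of 10 did, led by the 6-O-sulfotransferase HS6ST1 at 29.04 RPKM, NDST1 at 16.5 RPKM and EXT2 at 16.1 RPKM. The sulfatase SULF2, which removes 6-O-sulfate outside the cell, stood at 10.8 RPKM in replicate 1 and 5.27 RPKM in replicate 2. Its relative SULF1 had the opposite order, with 36 and 272 reads. Among the FGF-binding carrier proteins FGFBP3 was listed, at 37.4 ± 5.68 RPKM, and FGFBP1 and FGFBP2 were not.

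The 9 adaptor genes that link the receptors to RAS and phospholipase C all reached 1 RPKM in both libraries and lay close together between them, with log2 differences from -0.19 (PLCG1) to 0.32 (SOS2). SHC1 at 51.5 RPKM, GRB2 at 35.9 RPKM and the phosphatase PTPN11 at 34.7 RPKM were the highest. FRS2, the docking protein particular to FGF and neurotrophin receptors, stood at 3.57 ± 0.175 RPKM (SD, n = 2). Of 11 feedback and target genes 9 reached 1 RPKM in both libraries, led by ETV4 at 69.7 RPKM, DUSP6 at 61.4 RPKM and SPRY4 at 39.9 RPKM. DUSP6, a phosphatase of ERK1 and ERK2, had 3452 reads in replicate 1 and 7740 in replicate 2 (1.14 on the log2 scale). The difference was -0.04 for ETV4, 0.03 for SPRY4 and 0.08 for ETV5. Replicate 2 was the higher library for 7 of the 11 genes, and replicate 1 for 4 (ETV4, SPRED1, SPRED2 and SPRED3), and DUSP6 alone had a 2-fold gap.

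Sodium channel genes, whose products the intracellular FGFs bind, were low, with a median of 0.457 RPKM over the 11 genes listed with their partners. The scaffold MAPK8IP2, a partner of FGF12 that is not a channel, was the highest at 2.43 RPKM. The channel subunit SCN8A stood at 1.57 RPKM in replicate 1 and 1.43 RPKM in replicate 2. It had 435 and 431 reads, a difference of -0.04 on the log2 scale. Over all 10 lists, 65 of 76 genes were in the table, and 44 of the 65 had at least 1 RPKM in each library. Over all genes with a length that share was 59.5%. Of the 59 with a mean of at least 10, 7 had a 2-fold gap, a share near the 10.9% of all genes. Of these, 4 were higher in replicate 2 (GPC2, GPC6, SULF1 and DUSP6) and 3 in replicate 1 (FGF16, NDST2 and SCN3B). With total reads as the scale FGFR3, SULF2 and MAPK8IP2 also passed 2-fold, at -1.03, -1.04 and -1.09, all higher in replicate 1. The share of the lists was then larger, beside 11.2% of all genes.

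**Figure D4:**
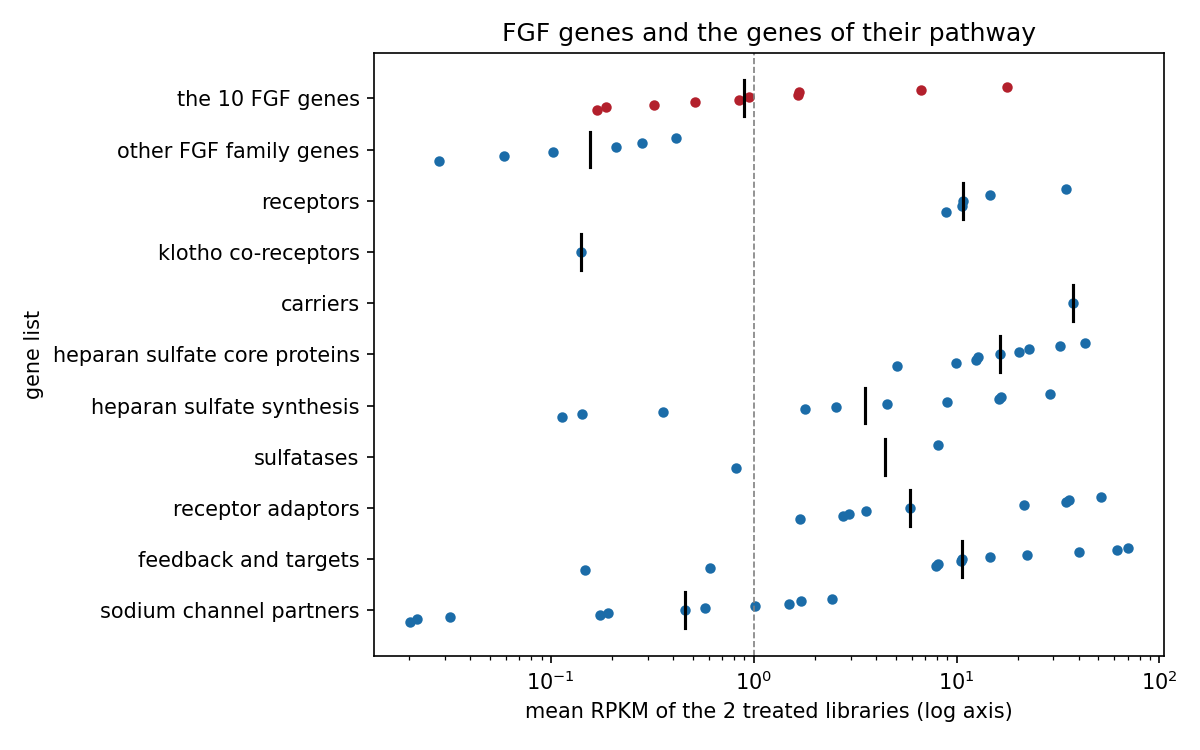
Mean RPKM of the 2 treated libraries on a log axis for the 10 FGF genes (red) and the listed genes of each pathway list (blue); each point is a gene, black bars are medians and the dashed line marks 1 RPKM. The median of the receptors (10.8 RPKM) lies above that of the FGF genes (0.900 RPKM).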

How the data were processed

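Poly(A) RNA of H1 cells was sequenced as paired ends, per the labels' protocols. The deposited values are a normalized signal: the table has 9 columns of values, and in each column used reads per gene were scaled by a single factor, as the values themselves show. Trimmomatic 0.36, STAR, featureCounts 1.5.3, DESeq2 1.26.0 and hg38 are named, without roles, per the submitters' processing notes. In the 2 columns used, 100% of values were whole multiples of 1 step within 0.01 reads, which gave back whole reads and size factors of 0.932 and 0.948. The other 7 columns match no sample's labels and were not used, so the planned test of XMD892 against E8 was not run. RPKM used merged exon lengths of GENCODE release 29. Intervals are 95%, exact (Poisson for a level, Clopper-Pearson for a ratio), and cover counting error only. Computation used numpy 2.4.6, pandas 2.3.3 and scipy 1.17.1. The difference was tested on simulated reads with counting error only, which cannot show how it behaves with further spread between libraries. The members and lists were chosen with earlier results of these data known. All 10 members are named, with the 3 highest of each list and any gene a small count refers to, except 1 gene that is not reported here; genes outside that rule (FGFR3, FGFRL1, FRS2, PLCG1, SOS2, ETV5, the SPRED genes, and single marker, low-oxygen and antisense genes) were added after their values were seen. No gene was picked by correlation of its pattern, since 2 libraries allow none. The low-oxygen genes, set beside the FGF11 gap, were outside the planned lists and chosen with earlier results of these data known.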

Additional observations from a re-analysis of the deposited data

How the results depend on the processing

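No paired analysis was possible because the samples in E8 alone have no matched column; for the same reason the alternatives planned for XMD892 against E8 were not run. The number of members at 1 RPKM in both libraries was 4 with the authors' size factors and with the longest transcript, and leaving out each replicate gave 4 to 5, FGF18 being the addition in replicate 2 alone. Members with a 2-fold gap numbered 2 with total reads or a pseudocount of 5, and 3 with quantile normalization or no minimum. With a minimum mean of 50 there were 0, since only 4 members remain. The share of all genes with such a gap was 16.9% without a minimum and 5.64% with a minimum of 50. No member with a 2-fold gap changed direction with total reads, quantile normalization or a pseudocount of 5. That is no check of direction, since a pseudocount cannot reverse a difference and the other settings shift it too little. FGF8, at 0.10, stood at -0.00031 with total reads. Depth limits the low members: FGF4, FGF8, FGF9, FGF11 and FGF17 each had at most 24 reads in at least 1 library.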
